A study of Mus musculus with 12 samples.

Results

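The miR-29 family was followed through osteoclast formation in culture, with its 3 guide strands, mmu-miR-29a, mmu-miR-29b and mmu-miR-29c, and the 3 opposite strands of their hairpins, mmu-miR-29a*, mmu-miR-29b-1* and mmu-miR-29c*. The guide strand is the arm of the hairpin that is usually kept in the silencing complex, and the asterisk in the array's older names marks the other arm. The members were chosen by name, and these 6 are all of the entries for miR-29a, b and c among the 696 mouse miRNAs of the array. Of the 6, 4 were detected on all 12 arrays, as were 148 of the 696 miRNAs.

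All cultures were made from bone marrow of male C57BL/6 mice of 6 to 8 weeks. The marrow was depleted of B220/CD45R+ and CD3+ lymphocytes and of red cells. The cells were then grown with 30 ng/ml of M-CSF, the growth factor on which osteoclast precursors depend, and 30 ng/ml of RANKL, the cytokine that turns them into osteoclasts. The groups are the cultures at day 1, day 3 and day 5, with 4 independent cultures and 4 arrays each. No culture without RANKL was analysed here, so each comparison is between days of the same treatment. The sources do not say whether the 4 cultures of a day came from separate mice, and p-values measure the spread between cultures.

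A miRNA guides the silencing complex to messenger RNAs that pair with its seed, the bases near its 5′ end, and members of a family share that seed. The miR-29 family is best known for repressing transcripts of the extracellular matrix, among them collagens and elastin, and it is studied in bone cells and in fibroblasts. Its hairpins lie in pairs, so that miR-29a comes from the same stretch of the genome as a copy of the miR-29b hairpin, and miR-29c from the same stretch as the other copy.

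The mature sequences show what the family shares and what the array can tell apart. They are RefSeq's for GRCm38.p6, matched for 6 of 6 members through the current names of the arms, and run 5′ to 3′ with the seed, bases 2 to 8, in capitals:
miR-29a: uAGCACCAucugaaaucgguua
miR-29b: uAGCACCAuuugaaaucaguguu
miR-29c: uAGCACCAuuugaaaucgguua
miR-29a*: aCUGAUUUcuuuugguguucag
miR-29b-1*: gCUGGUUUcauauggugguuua
miR-29c*: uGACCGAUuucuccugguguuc

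The 3 guide strands carry the same seed, AGCACCA, while each opposite strand carries a seed of its own. Counted from the 5′ end, miR-29a differs from miR-29c by the single substitution C10U. It differs from miR-29b by C10U, G18A, U21G and A22U, and miR-29b is 1 base longer.

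Mir29a lies at chr6:31062660-31062747 on the minus strand, with Mir29b-1 at chr6:31063023-31063093 on the same strand and 275 bases between them. Neither lies within another gene of the RefSeq table. Mir29b-2 (chr1:195037040-195037120) and Mir29c (chr1:195037547-195037634) lie on the plus strand with 426 bases between them, both inside the bounds of the long non-coding RNA gene A330023F24Rik. The mature miR-29b is the same from either locus, so its signal adds up both. The array has no entry for the opposite strand of the Mir29b-2 hairpin, and miR-29b-1* therefore reports on the chromosome 6 copy alone.

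The probes of the guide strands are complementary to these sequences and are shown because they differ at few bases. They run 5′ to 3′, with capitals where the 3 guide strands differ:
miR-29a, shorter probe: TAacCgatttcaGatggtg
miR-29a, longer probe: TAacCgatttcaGatggtgc
miR-29b, shorter probe: AACacTgatttcaAatggtg
miR-29b, longer probe: AACacTgatttcaAatggtgc
miR-29c, shorter probe: TAacCgatttcaAatggtgct
miR-29c, longer probe: TAacCgatttcaAatggtgcta

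Each of these probes has 10 spots on an array. Laid on miR-29c, a miR-29a probe has 1 mismatched base, and so has a miR-29c probe laid on miR-29a. A miR-29b probe has 5 mismatches with miR-29a and 4 with miR-29c. How much of a probe's signal comes from another member was not tested, and levels of different members are not compared here, since probes differ in brightness for the same amount of RNA.

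Days 1 and 5 shared a slide, whereas the arrays of day 3 were on another with a scan of its own, so that day 3 cannot be told apart from its slide, while day 5 against day 1 is a comparison within a slide. Between 186 and 276 miRNAs were detected per array. The summed signal of all miRNAs before normalization averaged 58.4% of the day 1 level at day 3 and 80.3% at day 5. Replicate 4 of day 5 had the fewest detected miRNAs and the largest median probe error, 30.8 units against 8.34 to 20.4 on the other arrays. It is pointed out where a value rests on it. No spot of a member was saturated.

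The 3 guide strands rose between day 1 and day 5, and miR-29b rose most. After quantile normalization over the 334 miRNAs detected on at least 1 array, miR-29b was 3.74-fold higher at day 5 than at day 1, miR-29a 1.93-fold and miR-29c 1.93-fold. By limma's moderated F test over the 3 days, at an adjusted p under 0.01, the 3 guide strands and 2 of the 3 opposite strands changed, 5 of 6 members, against 62.9% of all miRNAs tested. In 3 of 6 members, miR-29b, miR-29a* and miR-29c*, a pair of days also differed by more than 2-fold, against 46.7% of all tested. Both opposite strands among these were near the background, and their values follow after those of the guide strands.

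On the scanner's linear scale, before normalization, miR-29b read 6463, 5296, 7454 and 3587 units in the 4 day 1 cultures. It read 7751, 5574, 6496 and 5091 at day 3, and 17636, 11989, 18097 and 16480 at day 5. The day 5 arrays stood above all the others, while those of days 1 and 3 overlapped. Normalized log2 levels of miR-29b were 12.04 ± 0.32 at day 1, 13.14 ± 0.15 at day 3 and 13.94 ± 0.14 at day 5 (SD, n = 4), with no overlap between days. The rise was 1.11 (SE 0.15, adjusted p = 1.16e-04, limma) from day 1 to day 3 and 0.80 (SE 0.15, adjusted p = 0.00241, limma) from day 3 to day 5. From day 1 to day 5 it was 1.90 on the log2 scale (adjusted p = 1.13e-06, limma).

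For miR-29a the scanner read 24456, 19157, 21984 and 13799 units at day 1, 15014, 12535, 12443 and 13072 at day 3, and 34073, 28579, 32126 and 28844 at day 5. The day 3 arrays were at or below most day 1 arrays on this scale, and the day 5 arrays were above both. Its normalized log2 levels were 14.01 ± 0.09, 14.12 ± 0.05 and 14.96 ± 0.09 at days 1, 3 and 5 (SD, n = 4). Days 1 and 3 did not differ beyond their spread (0.11, SE 0.07, adjusted p = 0.224, limma). The rise came between day 3 and day 5, at 0.84 (SE 0.07, adjusted p = 2.04e-05, limma), and over the whole course it was 0.95 (adjusted p = 7.44e-07, limma).

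The scanner read 6779, 5169, 5857 and 3833 units for miR-29c at day 1, 4476, 3532, 3637 and 3744 at day 3, and 10675, 8566, 9854 and 8905 at day 5. As for miR-29a, the day 5 arrays were the highest and the day 3 arrays mostly the lowest on this scale. The normalized log2 level rose from 12.03 ± 0.10 to 12.50 ± 0.07 and 12.98 ± 0.03 (SD, n = 4), without overlap between days. Both steps passed the test, at 0.47 (SE 0.07, adjusted p = 1.76e-04, limma) and 0.47 (SE 0.07, adjusted p = 4.54e-04, limma), and the whole change was 0.95 (adjusted p = 5.18e-07, limma).

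**Figure D1:**
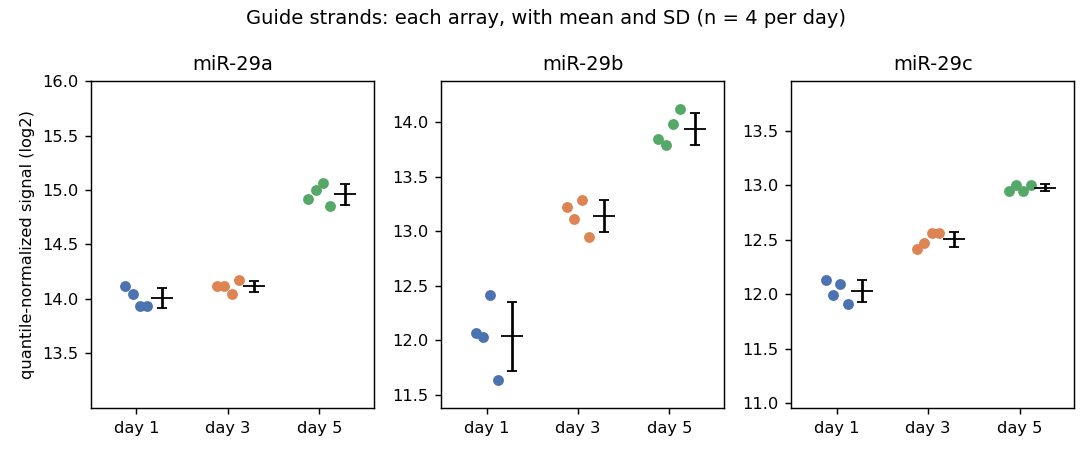
Quantile-normalized signal (log2) of miR-29a, miR-29b and miR-29c on each of 4 arrays per day (points), with the mean and SD beside them. Each panel spans 3 log2 units on its own scale. All day 5 points lie above all day 1 points in each panel, and the day 3 points of miR-29a overlap those of day 1.

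By day, 2 guide strands were higher at day 3 than at day 1, miR-29b and miR-29c, where 27.2% of all miRNAs tested were higher by the same test. All 3 were higher at day 5 than at day 1, against 31.7% of all tested, and all 3 were higher at day 5 than at day 3, against 14.7%. In each guide strand the 4 day 5 arrays lay above the 4 day 1 arrays, which was the case in 32.6% of the 334 miRNAs. For a single miRNA an exact permutation test (two-sided, 4 arrays a day) then gives p = 0.0286, the smallest this design allows.

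The step from day 1 to day 3 depended on how the arrays were scaled to each other. Without normalization the median of the 148 miRNAs detected on all arrays shifted by -0.58 on the log2 scale from day 1 to day 3. The shift of miR-29a was then -0.55 and that of miR-29c -0.47, the opposite of the normalized direction, and neither passed the test. That of miR-29b was 0.16 and did not pass either. After quantile normalization the same median was 0.27 above day 1, and relative to it miR-29b stood 0.83 higher, miR-29c 0.20 higher and miR-29a at -0.17. Day 5 against day 1 held its direction and its call for the guide strands in every scaling tried, between 0.66 and 1.02 for miR-29a, 1.52 and 1.92 for miR-29b and 0.83 and 1.18 for miR-29c over 15 alternatives. From the slide with days 1 and 5 alone, the 3 changes were 1.02, 1.84 and 0.93.

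**Figure D2:**
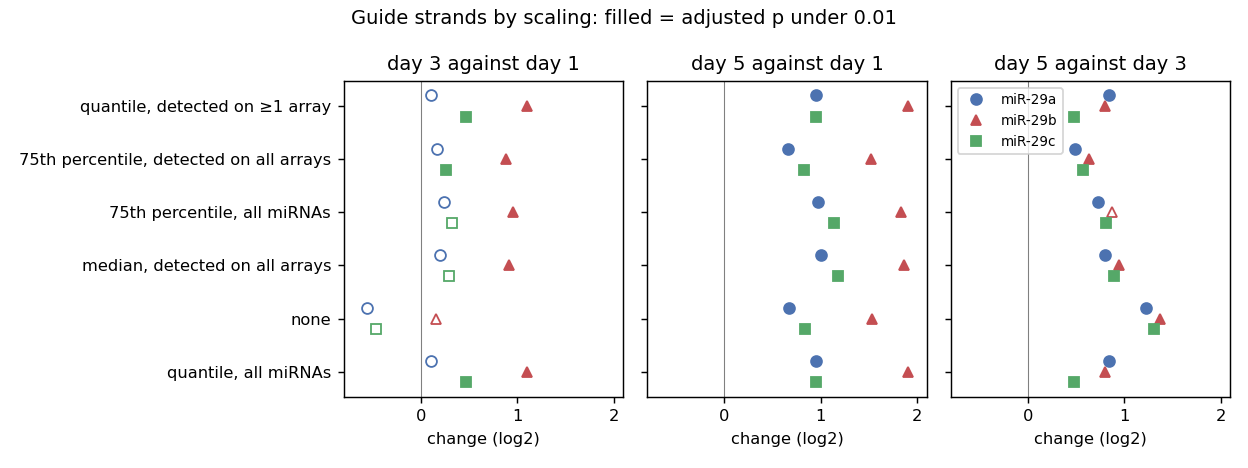
Change of the 3 guide strands (log2, x axis) for each pair of days under 6 ways of scaling the arrays (rows), filled where limma's adjusted p was under 0.01. Without normalization the day 3 changes are at -0.55 for miR-29a, 0.16 for miR-29b and -0.47 for miR-29c, while all day 5 changes against day 1 stay above 0.

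Whether the guide strands moved alike was tested on the difference of their log2 levels within each array, by exact two-sided permutation of the days, with 9 comparisons adjusted together. The difference of miR-29b from miR-29a was larger by 1.00 (SE 0.19) at day 3 than at day 1 (exact p = 0.0286, adjusted p = 0.0429). At day 5 it was larger than at day 1 by 0.95 (SE 0.19, exact p = 0.0286, adjusted p = 0.0429), and its values at days 3 and 5 overlapped (-0.05, exact p = 0.686). These calls lie just inside the threshold of 0.05 and were lost when any of 9 of the 12 arrays was left out, and with the deposited values or single probes. The difference itself then ran from 0.90 to 1.15 at day 3 and from 0.86 to 1.11 at day 5 with single arrays left out.

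Against miR-29c, miR-29b gained as well. The difference of miR-29c from miR-29b changed by -0.63 (SE 0.15) from day 1 to day 3 and by -0.95 (SE 0.14) from day 1 to day 5 (each exact p = 0.0286, adjusted p = 0.0429, calls that were lost under the same settings). Each of the 4 arrays of day 3 and of day 5 lay below each array of day 1. From day 3 to day 5 it changed by -0.32 (exact p = 0.0571, adjusted p = 0.0735), and the arrays of these days overlapped.

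Between miR-29c and miR-29a, which differ by 1 base, the answer changed with the scaling. After quantile normalization the difference was larger by 0.36 at day 3 than at day 1 and back within -0.01 of day 1 at day 5, a change of -0.37 from day 3 to day 5 (exact p = 0.0286, adjusted p = 0.0429, lost under the same settings). The plain ratio of the scanner signals, which no scaling of a whole array by a single factor can alter, went up at both steps. Relative to its day 1 mean, the ratio of miR-29c to miR-29a ran from 1.03 to 1.09 over the day 3 arrays and from 1.10 to 1.15 over the day 5 arrays. On that scale the 3 days did not overlap (log2 changes of 0.09, 0.17 and 0.08, each exact p = 0.0286, adjusted p = 0.0367). The ratio of miR-29b to miR-29a was 1.64 ± 0.22 times its day 1 mean at day 3 and 1.82 ± 0.24 times at day 5 (SD, n = 4), the same direction as after quantile normalization.

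**Figure D3:**
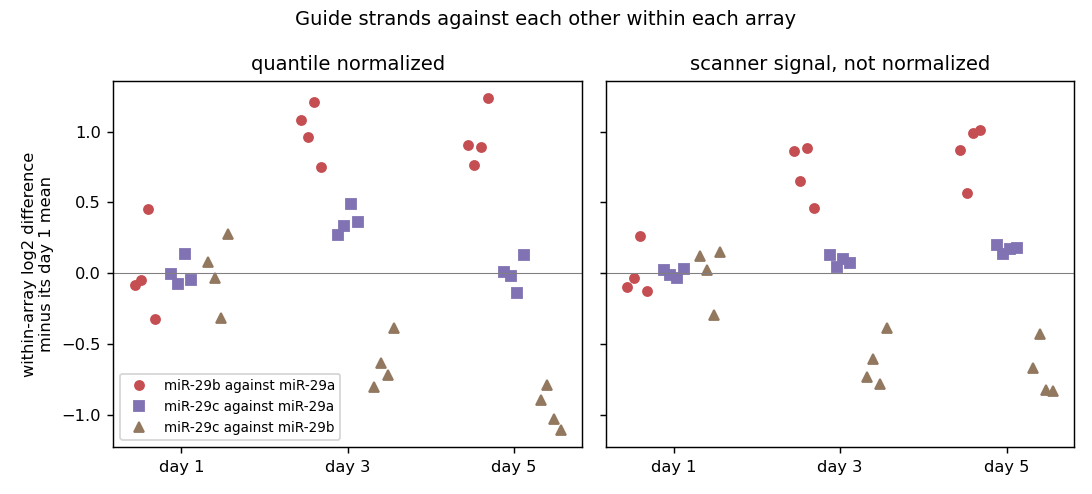
Within-array log2 difference between guide strands on each of 4 arrays per day, set to 0 at the day 1 mean, after quantile normalization (left) and for the scanner signal (right). The difference of miR-29b from miR-29a rises by day 3 in both panels, whereas that of miR-29c from miR-29a is back near 0 at day 5 on the left and highest at day 5 on the right.

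The 2 probes of each guide strand gave the same course. Normalized on their own, the shorter and the longer probe of miR-29b changed by 1.89 and 1.77 from day 1 to day 5, those of miR-29a by 0.89 and 0.87, and those of miR-29c by 1.10 and 1.11. At day 3 the probes of miR-29b were 1.22 and 0.96 above day 1, those of miR-29c 0.48 and 0.47, and those of miR-29a 0.20 and 0.19. All 6 probes were brighter than 3 times their error on all 12 arrays.

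The opposite strands were dim, and they did not behave alike. The scanner software marks a miRNA as detected when at least 1 of its probes exceeds 3 times its error, a rule that matched 8352 of 8352 marks in these files. By that mark miR-29b-1* was detected on all 12 arrays, miR-29a* on 4 and miR-29c* on 3. In miR-29b-1* and miR-29a* detection followed the length of the probe. Probes of both strands are shown, 5′ to 3′, with capitals for bases beyond the shortest probe:
miR-29b-1*, 19 bases: taaaccaccatatgaaacc
miR-29b-1*, 20 bases: taaaccaccatatgaaaccA
miR-29b-1*, 21 bases: taaaccaccatatgaaaccAG
miR-29b-1*, 22 bases: taaaccaccatatgaaaccAGC
miR-29a*, 19 bases: ctgaacaccaaaagaaatc
miR-29a*, 22 bases: ctgaacaccaaaagaaatcAGT

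Only the longer probes of miR-29b-1* gave signal over 3 times the error, that of 21 bases on 11 arrays and that of 22 bases on 12, while those of 19 and 20 bases did so on none. The bases that the longer probes add pair with the 5′ end of the strand. For miR-29a*, the probe of 22 bases passed on 4 arrays and the shorter probes on none. The probes of miR-29c*, of 20 and 21 bases, each passed on 3 arrays.

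miR-29b-1* did not rise with its guide strand. Its scanner signal was 382, 423, 392 and 157 units at day 1, 180, 167, 176 and 131 at day 3, and 286, 257, 204 and 147 at day 5. The days overlapped, and replicate 4 was the lowest array of each day. Normalized log2 levels were 8.01 ± 0.48, 7.77 ± 0.46 and 7.78 ± 0.44 (SD, n = 4). No pair of days passed the test, with changes of -0.24 (SE 0.31, adjusted p = 0.528, limma) from day 1 to day 3 and -0.23 (SE 0.31, adjusted p = 0.553, limma) from day 1 to day 5. Left out in turn, single arrays moved the last value between -0.46 and -0.02.

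Within arrays, the difference of miR-29b from miR-29b-1* grew by 1.34 (SE 0.22) from day 1 to day 3 and by 2.13 (SE 0.32) from day 1 to day 5 (each exact p = 0.0286, adjusted p = 0.0429 over 3 comparisons). From day 3 to day 5 it grew by 0.78 (SE 0.34, exact p = 0.0571). Since miR-29b sums the hairpins of chromosomes 1 and 6 and miR-29b-1* comes from chromosome 6 only, this is not a comparison of both arms of 1 hairpin. The array names 114 opposite strands whose guide strand it also holds, and 65 of these were detected on no array. Both strands were detected on all 12 arrays in 10 of the 114. In these 10, the change from day 1 to day 5 of the guide strand minus that of its opposite strand ran from -1.12 for miR-674, in which miR-674* rose more, to 2.13 for miR-29b. The median size of this gap was 0.66, and in 6 of the 10 both strands changed in the same direction.

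miR-29c* was detected at day 5 only, in replicates 1 to 3. Its scanner signal was 120, 81.7, 109 and 90.3 units at day 1, 75.7, 68.2, 61.0 and 124 at day 3, and 190, 146, 179 and 325 at day 5. The day 5 arrays were above all others. The highest reading, from replicate 4 of day 5, was not marked as detected, its 2 probes reaching 2.19 and 2.99 times their error. From the 3 arrays that detected it, miR-29c* was on the quantile-normalized scale 2.62-fold higher at day 5 than at day 1 (adjusted p = 4.44e-05, limma). It was 1.78-fold higher than at day 3 (adjusted p = 0.00332, limma). With the undetected replicate 4 of day 5 included, the fitted folds were 3.16 (adjusted p = 2.52e-05, limma) and 2.06 (adjusted p = 0.00221, limma). A bound would enter an earlier array with the lowest detected signal on that array where this was above the measured value. All of the earlier arrays entered with the measured value, so these folds are estimates and not lower bounds. With normexp background correction, which adds an offset of 50 units, the folds were 1.46 and 1.30. With arrays scaled to their 75th percentile over miRNAs detected everywhere, the log2 change from day 1 was 1.00 (adjusted p = 0.0107, limma). With arrays not scaled at all, this log2 change was 1.01 (adjusted p = 0.0101, limma). Neither passed the threshold of 0.01.

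miR-29a* was at the limit of the assay. It read -5.31, 28.27, 27.95 and 30.38 units at day 1, 18.9, 18.9, 15.0 and 6.32 at day 3, and 65.2, 59.6, 60.9 and 2.70 at day 5. It was marked as detected on replicate 4 of day 1 and replicates 1 to 3 of day 5, and these 3 arrays of day 5 read above all others. Replicate 4 of day 5, at 2.70 units, received a normalized log2 value of 5.95, within the 5.68 to 6.10 of the 3 arrays with detection, so the fitted changes of this strand are no measure of its size. Relative to day 3, where it was not detected, the fitted change on the 3 arrays of day 5 that detected it was 1.16 on the log2 scale. It did not pass the test (adjusted p = 0.378, limma). With day 3 arrays raised to the lowest detected signal where this was higher, the fold was 1.52, which was not tested. The change from day 1 to day 5 passed the test (adjusted p = 2.10e-04, limma). It lost the call in each scaling by 1 factor per array, with log2 changes from 1.04 to 1.38. The change from day 1 to day 3 between arrays almost without detection also passed (adjusted p = 0.00585, limma) and lost its call without replicate 2 of day 1, without replicate 2 or 4 of day 3 or without replicate 4 of day 5. Without that last array the strand did not pass the F test either (adjusted p = 0.0119, limma).

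**Figure D4:**
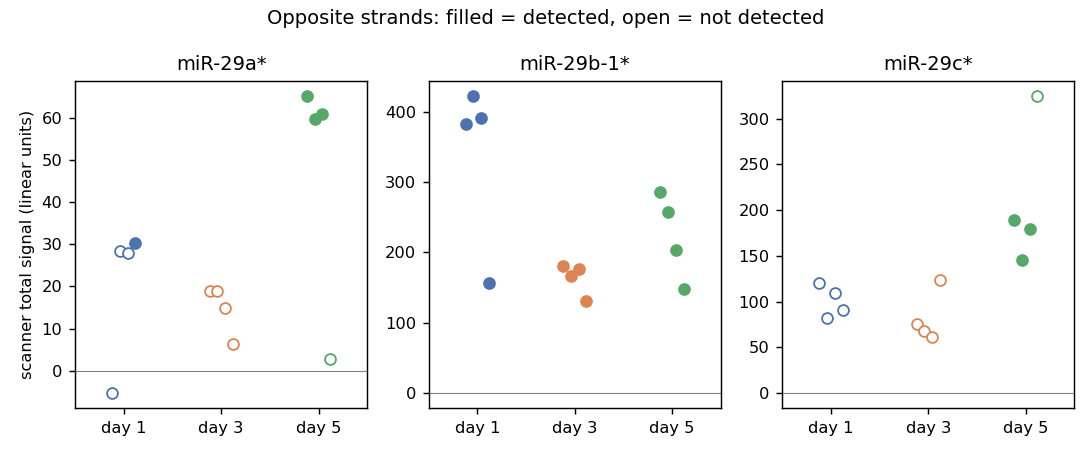
Scanner total signal (linear units) of miR-29a*, miR-29b-1* and miR-29c* on each of 4 arrays per day, filled where the scanner software marked the strand as detected and open where it did not. miR-29b-1* is detected on all 12 arrays, and miR-29c* only on 3 day 5 arrays, while the highest reading, 325 units, has an open point.

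Larger changes than those of the guide strands were found in other miRNAs of the cultures. Of the 148 miRNAs detected on all 12 arrays, miR-29b ranked 16, miR-29a 43 and miR-29c 44 by change from day 1 to day 5, counted from the largest rise. miR-29b-1* ranked 104. From day 3 to day 5 miR-29a ranked 10, miR-29b 12 and miR-29c 26, whereas from day 1 to day 3 they ranked 86, 19 and 56.

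**Figure D5:**
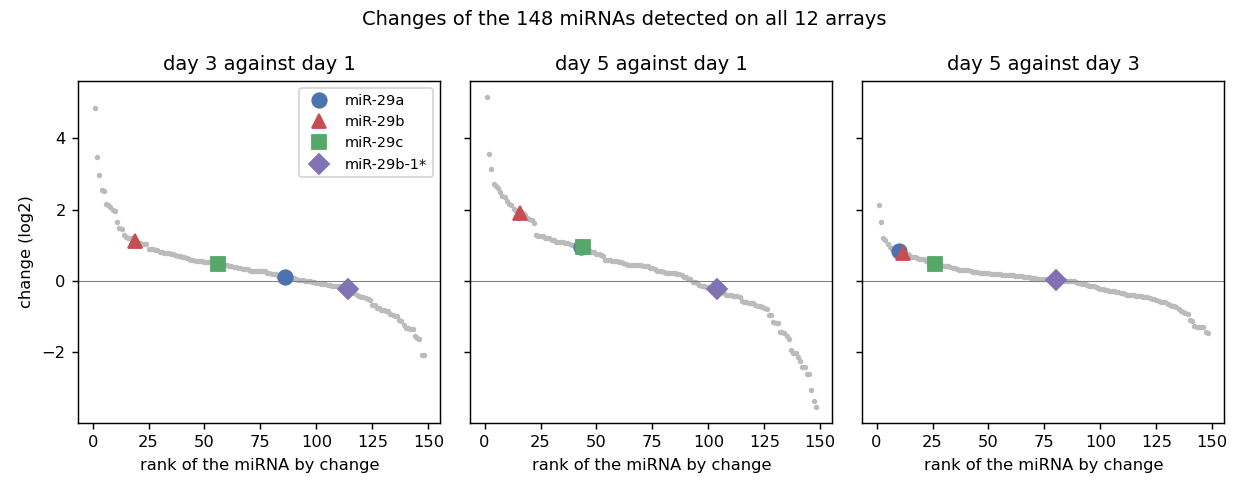
Change (log2, y axis) of the 148 miRNAs detected on all 12 arrays, ordered from the largest rise to the largest fall (x axis), for each pair of days, with 4 members of the family marked. miR-29a stands at rank 86 from day 1 to day 3 and at rank 10 from day 3 to day 5.

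The miRNAs most like each guide strand were found by Pearson's r over the 12 arrays among 144 others detected on all of them. The arrays share their normalization, and most of the variance is between days, so these values describe a time course. The most like miR-29a were miR-199a-3p (r = 0.97), miR-532-5p (0.96) and miR-30a (0.93), which changed by 2.23, 1.19 and 1.27 from day 1 to day 5. For miR-29b they were let-7e (0.98), miR-24-2* (0.98) and miR-140 (0.97), and for miR-29c miR-500 (0.97), miR-148b (0.97) and miR-27b (0.97). Among these, let-7e changed by 2.38 from day 1 to day 5 and miR-148b by 0.70.

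Other miRNAs studied in osteoclasts moved in both directions in the same cultures. Of 14 named in that connection, 12 were tested. From day 1 to day 5, 5 of them were higher and 3 lower, with a median change of 0.23 against 0.11 over all 334, of which 31.7% were higher and 29.0% lower by the same test. miR-125a-5p rose by 1.92, and miR-146a, which restrains NF-kB signalling, rose by 1.16 (adjusted p = 3.43e-04, limma). miR-155, which inflammatory signals induce, was lower by the same test (-1.05). The largest fitted rises in the list were those of miR-183 (8.74) and miR-214 (6.10), neither of them detected on all arrays. At day 1 miR-183 was not detected and stood at the floor of 1 on all 4 arrays. miR-214 was then detected on 1 array, with a log2 level of 2.47 ± 2.91 (SD, n = 4). These 2 fitted values are no measure of the size of the rise. The change of miR-29b, at 1.90, was close to that of miR-125a-5p. Those of miR-29a and miR-29c, at 0.95, were closest to that of miR-34a, at 1.00.

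Marker miRNAs of other cells also changed between the days on which the guide strands rose. The myeloid miRNAs miR-223, miR-142-3p and miR-142-5p were detected on all arrays, and their summed normalized signal was 98968 to 107910 at day 1 and 83340 to 96010 at day 5. Of the 3, miR-223, the brightest, fell by 0.43 on the log2 scale, while miR-142-3p differed by 0.57 and miR-142-5p by 0.10, neither past the test. The summed signal of the erythroid miR-451 and miR-144 dropped from 25488 to 38092 at day 1 to 136 to 268 at day 5. The 3 lymphoid markers summed to 1840 to 2758 at day 1 and 1626 to 2230 at day 5. Of these, miR-181a fell by 0.80, and the differences of miR-150 (-3.08, detected at day 1 only) and miR-181b (0.45) did not pass the test. Of 5 markers of fibroblast-like and other stromal cells, 4 were higher at day 5 than at day 1, against the same 31.7% of all tested. The sum over the 5 went from 437 to 666 at day 1 and 591 to 669 at day 3 to 2600 to 3630 at day 5. miR-199a-3p, the miRNA most like miR-29a, is in that list. miR-143 was detected on 3 day 5 arrays only and miR-145 on 1 day 1 array only. The part of these cells in the rise of the miR-29 strands was not tested, and in RNA from a whole culture more cells of a type and more of a miRNA per cell cannot be told apart.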

How the data were processed

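Total RNA from 12 cultures was hybridized to Agilent 1-color mouse miRNA arrays (release 15), 1 culture per array. The deposited scanner files were made by the authors with Feature Extraction 9.5.3.1. They give background-subtracted intensity on a linear scale, not normalized between arrays. The total signal of a miRNA sums its probes. The authors also deposited log2 values after quantile normalization in GeneSpring, which were used as an alternative. No sequencing depth applies, and the number of arrays limits the precision. The median signal of detected miRNAs was 6.97 to 17.7 times the local background.

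The 334 miRNAs with detection on 1 array or more entered quantile normalization of their total signals (limma 3.58.1, R 4.3.3), and values were raised to a floor of 1 and converted to log2. One mean per day was fitted with lmFit and eBayes, and p-values were adjusted over all 334 (Benjamini-Hochberg, threshold 0.01). Differences between members within an array were tested by exact permutation (Python 3.11.15, numpy 2.4.6) at an adjusted p of 0.05. The fit was also run on simulated arrays of independent normal values, without normalization, slide or replicate effects. That run cannot speak to the scaling or the slide. Alternatives covered the detection filter, scaling, background correction, deposited values, floor, intensity trend, analysis of variance, replicate block, slide 1 alone and each array left out. Named besides the members were, for each guide strand, the 3 miRNAs of highest correlation, 14 miRNAs studied in osteoclasts and 13 markers of myeloid, erythroid, lymphoid and stromal cells. miR-674, at the end of a range, was named after its values were seen. The members and lists were chosen with earlier results of these data known.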

Additional observations from a re-analysis of the deposited data

Results flagged for a closer look

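The 4 day 1 arrays of miR-29c* held a value apart from the rest. Replicate 2 had a normalized log2 level of 5.63, while the other three lay between 6.24 and 6.26, and the gap was 0.9604 of the range of the group. The strand was not detected on any of these arrays. Of 18 groups of 4 arrays examined in this way, this was the only one, and chance gives such a gap in about 1 of 20.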

How the results depend on the processing

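Of 237 log2 changes of the guide strands under the alternatives, 232 kept their side of the threshold and, if past it, their direction. These include miR-29a at day 3 against day 1, at 0.11 after quantile normalization and -0.55 without normalization, neither past the threshold. The 5 exceptions concern day 3. Without normalization the day 3 change against day 1 was 0.16 for miR-29b, no longer past the threshold, and -0.47 for miR-29c, reversed. For miR-29c it was 0.33 when arrays were scaled by the upper quartile (75th percentile) of all miRNAs and 0.29 by the median, and day 5 against day 3 was 0.87 for miR-29b by that quartile, none of them past the threshold. The cause was not tested. In the opposite strands 29 of 220 values changed their call. The deposited values are blank where a strand was not detected. With them miR-29a* at day 5 against day 1 was reversed (-0.22), from 1 array of day 1 and 3 arrays of day 5.

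For miR-29a* at day 3 against day 1 the call was lost at 1.00 without a filter and with quantile normalization over all miRNAs, at 0.72 and 0.77 with the upper quartile of miRNAs detected everywhere and of all, at 0.74 with the median, at 0.12 without normalization, at 0.15 with normexp and at 4.46 with a floor of 0.1. In the same order, leaving out the last pair, its call at day 5 against day 1 was lost at 2.58, 2.58, 1.04, 1.34, 1.38 and 1.18. Day 5 against day 3 passed with processed spot signals (1.63) and normexp (0.24). All values in this paragraph are log2 changes. For miR-29c* the call at day 5 against day 1 was lost at 1.00 with the upper quartile of miRNAs detected everywhere and at 1.01 without normalization. Its call at day 5 against day 3 was lost at 0.61, 0.85 and 0.92 with the upper quartile of miRNAs detected everywhere, that of all and the median. With single arrays left out miR-29a* ran from 2.11 to 3.51 at day 3 against day 1 and from 1.16 to 2.35 at day 5 against day 3, and miR-29c* from 0.47 to 0.69 at day 3 against day 1.

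The 5 members past the F test were 3 when detection was required on all 4 arrays of a day or on all 12, when arrays were scaled by the upper quartile of miRNAs detected everywhere or by their median, and with the deposited values. The 3 members that also changed more than 2-fold were 1 under both filters, that quartile, normexp correction and the deposited values. Members higher at day 3 than at day 1 were 3 of 6, but 1 by the upper quartile of all miRNAs or by the median and 0 without normalization. In that last setting, by limma, miR-29b-1* changed by -0.96 (adjusted p = 0.0268), miR-29a by -0.55 (adjusted p = 0.0189) and miR-29c by -0.47 (adjusted p = 0.0428). None of these passed 0.01, and miR-29c* changed by -0.33, miR-29b by 0.16 and miR-29a* by 0.12. Members higher at day 5 than at day 1 were 5, but 3 under both filters, the quartile of miRNAs detected everywhere, no normalization and the deposited values. Members higher at day 5 than at day 3 were 4, but 2 by the upper quartile of all miRNAs. The filters leave out dim strands by construction, and the blanks of the deposited values leave out arrays of them. With single arrays left out, these counts ran from 4 to 5, 2 to 4, 2 to 3, 5 to 5 and 4 to 5.

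Tests of differences between guide strands can pass the adjusted threshold only when most of the 9 comparisons reach the smallest exact p. The values of those that did not are as follows. For miR-29b against miR-29a at day 3 the difference was 1.08 with deposited values, 1.01 with the shorter and 0.77 with the longer probes, and 0.90 to 1.15 with single arrays left out. At day 5 it was 1.06, 0.99, 0.90 and 0.86 to 1.11. For miR-29c against miR-29a the day 3 values were 0.44, 0.28, 0.28 and 0.33 to 0.41. From day 3 to day 5 they were -0.31, -0.069, -0.034 and -0.42 to -0.32, and with scaling by the upper quartile of miRNAs detected everywhere this difference was reversed at 0.085. Under that scaling day 5 against day 1 was 0.17, past the threshold, against -0.01 after quantile normalization. For miR-29c against miR-29b the values were -0.64, -0.74, -0.49 and -0.74 to -0.55 at day 3, and -0.93, -0.79, -0.66 and -1.04 to -0.86 at day 5. With any of 9 of the 12 arrays left out, all those of days 3 and 5 and replicate 4 of day 1, no comparison passed.

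Replicate numbers are shared between days. Deviations of same-numbered arrays correlated between 0.09 and 0.78 in 12 pairs (median 0.40), against a median of -0.21 in the 36 other pairs, and 8 of 12 arrays correlated best with their own number. This is a hint from the data that the numbers pair the arrays. Since no source says what a number marks and 1 pair was not over 0.1, the limit asked of every pair, the fit without the block was kept. With the replicate block 5 members passed the F test and 4 in place of 3 were higher at day 3 than at day 1, miR-29c* being added (0.62, adjusted p = 0.00972, limma). For miR-29b-1*, lower than the same-numbered day 1 array on 4 of 4 arrays at day 3 and at day 5, the adjusted p with the block was 0.0190 and 0.0211 (limma), not past 0.01, in place of 0.528 and 0.553.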
